A study of Rattus norvegicus with 145 samples.

Results

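The 8 genes described here act on steroid hormones in rat liver: Cyp17a1, Shbg, Srd5a1, Akr1d1, Hsd11b1, Hsd17b2, Hsd17b6 and Akr1c14. They are 8 of the 17337 genes listed in 5 tables of raw RNA-seq read counts, were looked up by symbol, and were all found in every table. The set was put together around Cyp17a1, which was selected on its measured counts in experiment B. There it was lower in acetamide-treated males and higher in treated females at the highest dose after 28 days, though not at every dose and time. The dose contrasts of experiment B are therefore given for these genes as a description without a test, while experiment A, the vehicle rats and the other steroid genes were tested. All 8 genes passed the filter on low counts in every table.

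Acetamide, a small amide found in food, was given to Wistar rats by daily gavage in water, and RNA was sequenced from the left lobe of the liver of 145 rats, 5 per group in 29 groups. Experiment A used Hsd:WI males aged 9 to 10 weeks, dosed for 7 days with 0, 30, 100, 300 and 1000 mkd (mg/kg/day), with tissue taken on day 8. Experiment B used Crl:WI males and females aged 8 to 10 weeks, which received 0, 300, 500, 750, 1000 or 1500 mkd for 7 days (day 8) or 28 days (day 29). The 0 mkd groups received water, every group was handled by gavage, and each library came from a separate rat.

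Steroid hormones are made in the adrenal and the gonads and are largely taken apart in the liver. There they are reduced at the A ring, oxidised or reduced at single oxygen groups by hydroxysteroid dehydrogenases, hydroxylated by cytochromes P450 and coupled to sulfate or glucuronic acid. Rat liver is known for large differences between the sexes in these enzymes, which follow the male and female patterns of growth hormone release.

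RefSeq promoter windows for GRCr8 were held for 3 of the 8 genes, Srd5a1, Shbg and Akr1c14. The 250 bases before the annotated start are shown for Srd5a1 and Akr1c14, because both reductase genes were higher in vehicle females on day 29 and lower in females given 1500 mkd for 28 days. Capitals mark GGGCGG (the GC box) and CCAAT, searched on both strands, so that a reverse-strand match reads CCGCCC or ATTGG. The Srd5a1 window is chr1:35514664-35514913 on the plus strand and the Akr1c14 window is chr17:71083185-71083434 on the minus strand, each read 5′ to 3′ along its gene.
Srd5a1: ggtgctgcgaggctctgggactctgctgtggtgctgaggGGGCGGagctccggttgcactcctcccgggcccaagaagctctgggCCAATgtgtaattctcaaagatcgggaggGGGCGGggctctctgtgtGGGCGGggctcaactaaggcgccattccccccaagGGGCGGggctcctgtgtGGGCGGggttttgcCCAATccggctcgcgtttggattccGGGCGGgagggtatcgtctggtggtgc
Akr1c14: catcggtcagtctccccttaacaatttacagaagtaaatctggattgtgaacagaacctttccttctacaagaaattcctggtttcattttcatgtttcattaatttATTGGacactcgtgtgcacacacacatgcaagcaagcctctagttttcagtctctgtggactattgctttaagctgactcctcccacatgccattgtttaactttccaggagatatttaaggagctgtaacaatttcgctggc
The Srd5a1 window held 6 GGGCGG and 2 CCAAT matches at 66.4% G and C, and the Akr1c14 window held no GGGCGG and 1 CCAAT match at 40.4% G and C. Of 33469 annotated windows of the same length, 30.5% held GGGCGG and 34.0% held CCAAT, and the median window had 51.2% G and C. The letters TTCNNNGAA, an element that STAT factors bind, were in 7.67% of all windows and in neither of these 2.

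Libraries held 15449716 to 39986531 reads on genes, with a median of 28262376. All 10 hepatocyte markers were high in every rat, with Alb never under 45229 CPM (reads scaled to library size). Of 10 markers of steroid-making gland cells, 8 stayed under 1 CPM in every rat, their sum ran from 0.258 to 4.03 CPM, and the gland enzyme gene Cyp11b1 and the ACTH receptor gene Mc2r had 0 counts in 145 of 145 rats. The labelled sexes were separated without overlap by Cyp2c11, Cyp2c12, Cyp2c13, Cyp3a2 and A1bg, 5 of the 6 sex markers, whereas the ranges of Sult2a2 overlapped. In bulk liver RNA, fewer cells of a type and less RNA per cell cannot be told apart. Male rat 3 of the group given 1500 mkd for 28 days stood apart from the rest of that group. It had 3262 CPM of Akr1d1 against 1624 to 1832 CPM in the others, and 229 CPM of Hsd11b1 against 707 to 916 CPM. The study reports the same animal as an outlier in Ki67 labeling, a measure of cell proliferation. Log2 fold changes that rest on that group are also given without it.

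The first comparison asked how far the genes differed between the sexes without acetamide. In the vehicle rats of experiment B on day 8, Srd5a1 and Shbg were higher in females and Akr1d1 and Hsd11b1 were higher in males, so that 4 of 8 genes were called against 7.98% of 11224 genes tested. On day 29 the count was again 4 of 8, with Akr1c14 called and Shbg not, against 11.8% of all genes. A call is a fold change of at least 1.5 with an adjusted p of at most 0.05 in edgeR's quasi-likelihood test with Benjamini-Hochberg adjustment over all genes tested. The vehicle rats are also the reference of the dose contrasts below.

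Cyp17a1 encodes the hydroxylase and lyase that turns progestins into androgen precursors. In vehicle males on day 8 the 5 rats had 58.9, 34.8, 50.3, 96.1 and 64.2 CPM, and in vehicle females 65.1, 180, 71.8, 58.4 and 69.1 CPM. The groups overlapped, with 1 female above every male. The log2 difference, female minus male, was 0.55 ± 0.36 (SE, n = 5 and 5; edgeR adjusted p = 0.402) on day 8 and 0.16 ± 0.36 (adjusted p = 0.801) on day 29. Without female rat 2, at 180 CPM, the day 8 value of Cyp17a1 was 0.12. No sex difference in Cyp17a1 exceeded the spread between vehicle rats.

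Shbg encodes the plasma carrier of sex steroids, which in adult rats comes mainly from the testis. Its counts were low, 4 to 66 reads per library. Vehicle males on day 8 had 0.266, 0.442, 0.444, 0.679 and 0.602 CPM, and vehicle females 1.13, 1.61, 1.61, 0.522 and 1.16 CPM, with 4 of 5 females above every male. The log2 difference was 1.33 ± 0.39 (edgeR adjusted p = 0.0329). The call did not withstand the loss of male rat 1, 2 or 3 or of female rat 2, 3 or 5 (adjusted p of Shbg 0.0504 to 0.0858), nor a fit with the replicate number as a block (1.28, adjusted p = 0.0574). On day 29 the difference was 0.60 ± 0.37 (edgeR adjusted p = 0.278). In the GRCr8 annotation Shbg overlaps the neighbouring gene Sat2, so its few reads may be shared with it.

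Srd5a1, the reductase that turns testosterone into dihydrotestosterone, was the clearest female-high gene of the 8. Males had 206, 82.0, 76.9, 256 and 215 CPM on day 8, and females 1650, 916, 1129, 1006 and 1067 CPM. No female overlapped with any male. Srd5a1 was 6.90-fold higher in females (log2 difference 2.79 ± 0.34, edgeR adjusted p = 9.69e-06) on day 8. On day 29 means were 131 ± 54.9 CPM (SD, n = 5) in males and 1007 ± 188 in females, a 7.62-fold difference (2.93 ± 0.34, edgeR adjusted p = 4.53e-06). Srd5a1 overlaps LOC120100362 in the annotation.

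Akr1d1 encodes the reductase of the opposite ring geometry, used in bile acid synthesis and in steroid clearance. It went the other way: males had 3155, 2224, 1610, 2249 and 2633 CPM on day 8, and females 623, 359, 486, 692 and 947 CPM, again without overlap. The gene was 3.83-fold lower in females on day 8 (log2 difference -1.94 ± 0.28, edgeR adjusted p = 7.53e-05) and 2.90-fold lower on day 29 (-1.53 ± 0.28, adjusted p = 0.000682).

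Hsd11b1, which regenerates active glucocorticoid from its inactive keto form, had the widest sex difference of the 8 genes on both days. Males had 797, 600, 1016, 524 and 1097 CPM on day 8, and females 34.8, 28.8, 44.0, 12.9 and 33.3 CPM. The lowest male lay far above the highest female. Hsd11b1 was 26.3-fold lower in females (log2 difference -4.72 ± 0.46, edgeR adjusted p = 4.09e-07) on day 8. On day 29 it was 16.3-fold lower (-4.03 ± 0.44, edgeR adjusted p = 2.04e-06). Female rat 1, at 132 CPM against 23.2 to 36.1 CPM in the other 4, moved the day 29 value, and without it the log2 difference of Hsd11b1 was -4.79.

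Hsd17b2 oxidises estradiol and testosterone to weaker hormones. Its values ran from 223 to 1752 CPM in vehicle males and from 97.6 to 730 CPM in vehicle females on day 8. The log2 difference of -1.37 ± 0.57 did not pass the test (edgeR adjusted p = 0.145), and neither did -0.71 ± 0.57 on day 29 (adjusted p = 0.412). Most of this spread followed another gene, Dbp, and is taken up again below.

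Hsd17b6 oxidises 3-alpha-reduced androgens back to active forms. On day 8 its log2 difference, female minus male, was 0.74 ± 0.35 (edgeR adjusted p = 0.210). That value ran from 0.12 to 0.89 when any 1 of the 10 rats was left out. Males had 56.6, 38.1, 30.9, 45.7 and 33.8 CPM on day 29, and females 73.3, 73.2, 44.3, 92.8 and 136 CPM, with 4 of 5 females above every male. The log2 difference of 1.02 ± 0.35 lay just outside the threshold (edgeR adjusted p = 0.0513), and the gene was called in 5 of 7 other fits that kept every rat (not in the unfiltered fit or with Dbp as a covariate, adjusted p 0.0547 and 0.0523), and also without male rat 1 or female rat 3 (adjusted p of Hsd17b6 0.0470 and 0.0308).

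Akr1c14 encodes the hepatic dehydrogenase that reduces dihydrotestosterone to androstanediol. On day 29 males had 1334, 1427, 1049, 1116 and 1995 CPM, and females 3805, 1620, 1735, 2236 and 3161 CPM. The 2 lowest females lay within the male range. The log2 difference was 0.85 ± 0.26 (edgeR adjusted p = 0.0315) on day 29 and 0.21 ± 0.26 (adjusted p = 0.690) on day 8. The day 29 call was lost without any 1 of male rats 1 to 4 or female rats 1 and 5 (adjusted p of Akr1c14 0.0558 to 0.0944). Close Akr1c paralogs share sequence with this gene, so its counts are uncertain to that extent.

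**Figure D1:**
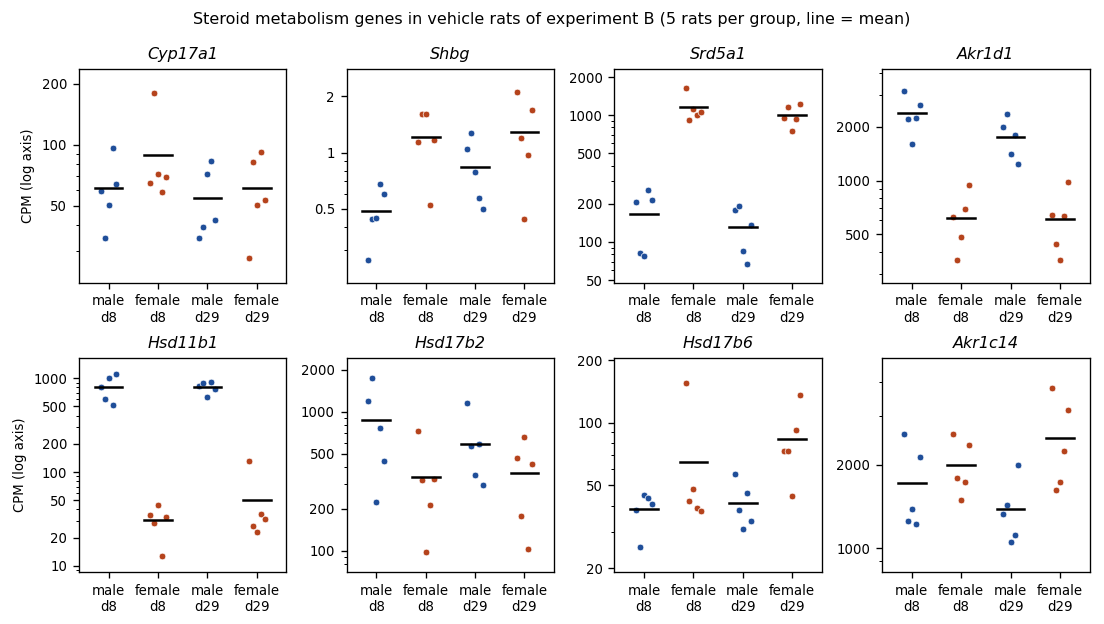
CPM on a log axis of the 8 genes in the vehicle rats of experiment B, with 1 point per rat, 5 rats per group and the group mean as a line, for males and females on day 8 (d8) and day 29 (d29). Srd5a1 separates the sexes upward in females, Akr1d1 and Hsd11b1 downward, and the points of Cyp17a1 overlap.

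With acetamide the order of the sexes seen for Srd5a1, Akr1d1 and Hsd11b1 in vehicle rats was also seen at each dose. Over 12 pairs of male and female groups (6 doses on 2 days), the ranges did not overlap in 12 of 12 pairs for Srd5a1, Akr1d1 and Hsd11b1. Female means of Srd5a1 were 3.73 to 7.69 times the male means, male means of Akr1d1 were 2.35 to 4.62 times the female means, and male means of Hsd11b1 were 9.50 to 44.1 times the female means. Hsd17b2 means were higher in males in 12 of 12 pairs, by 1.62 to 3.57 times, with overlap in every pair. Cyp17a1 means were higher in females in 12 of 12 pairs with overlap in every pair. On day 29 the ratio of the means ran from 1.12 in vehicle rats to 5.37 at 1500 mkd. On day 8 it ran from 1.42 to 1.67, with 1.46 in vehicle rats and 1.44 at 1500 mkd.

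The genes were also compared between day 29 and day 8 in vehicle rats, where age and the length of gavage cannot be told apart. None of the 8 was called in males (0.0356% of all genes called) or in females (0.784%) by edgeR. At an unadjusted p under 0.05 the count was 0 of 8 in each sex, and DESeq2 also called 0 of 8. Without female rat 1 of day 8, whose Hsd17b6 value was 156 CPM, Hsd17b6 was called at a log2 difference of 1.00 (edgeR adjusted p = 0.0229) against 0.38 ± 0.35 with it. Between vehicle males of experiment B and experiment A on day 8, edgeR and DESeq2 each called 0 of 8 genes (0.348% of all genes with edgeR), and 2 of 8 had an unadjusted p under 0.05. These were Hsd17b6, 38.5 ± 7.89 CPM in experiment B and 22.1 ± 11.2 in experiment A (log2 difference 0.80 ± 0.32, adjusted p = 0.220), and Akr1d1 (0.43 ± 0.20, adjusted p = 0.281). Strain, supplier and experiment cannot be told apart in that comparison.

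Experiment A asked the dose question in rats outside the experiment B contrasts that Cyp17a1 was selected on. At 1000 mkd all 8 genes had lower fitted values than in vehicle males, and 3 of 8 were called down (Hsd11b1, Akr1c14 and Akr1d1) against 7.45% of 11323 genes called down and 14.0% called up. The median log2 fold change was -0.67 over the 8 genes and 0.00093 over all genes. At 30, 100 and 300 mkd edgeR called 0 of 8 genes, none of them had an unadjusted p under 0.05, and 0% of all genes were called, while 324, 232 and 218 genes had an unadjusted p under 0.05.

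Hsd11b1 fell from 775, 1071, 821, 724 and 918 CPM in vehicle males to 597, 197, 518, 213 and 493 CPM at 1000 mkd. All 5 treated rats lay below all 5 vehicle rats. The log2 fold change was -1.10 ± 0.27 (edgeR adjusted p = 0.00391). At the 3 lower doses group means stayed between 849 and 1048 CPM.

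Akr1c14 fell from 1381, 1900, 1555, 1732 and 2696 CPM to 1089, 524, 1302, 819 and 1086 CPM, also without overlap. Its log2 fold change was -0.95 ± 0.26 (edgeR adjusted p = 0.00846). Like Hsd11b1, it stayed called when any 1 of the 10 rats was left out, with adjusted p of Akr1c14 up to 0.0293 and of Hsd11b1 up to 0.0141.

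Akr1d1 had 2051, 2162, 1342, 1403 and 1867 CPM in vehicle males and 2056, 434, 1058, 980 and 1047 CPM at 1000 mkd, where 4 of 5 rats were below every vehicle rat and rat 1 was among the highest of both groups. The log2 fold change of -0.67 ± 0.25 passed narrowly (edgeR adjusted p = 0.0472). It no longer passed without vehicle rat 1, 2 or 5 or treated rat 2, 3, 4 or 5 (adjusted p of Akr1d1 0.0673 to 0.112), without the filter (0.0560), with at least 10 counts in every rat (0.0532), or when only the 2 groups were fitted (0.171).

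The other 5 genes did not pass at 1000 mkd. Srd5a1 had a mean of 259 ± 79.3 CPM in vehicle males and 164 ± 36.1 at 1000 mkd, with 4 of 5 treated rats below every vehicle rat (-0.67 ± 0.30, edgeR adjusted p = 0.0875). Cyp17a1 had 15.5, 25.2, 37.5, 39.6 and 108 CPM in vehicle males and 33.8, 21.3, 21.7, 35.9 and 31.2 CPM at 1000 mkd. The treated values of Cyp17a1 lay inside the vehicle range, and its log2 fold change of -0.66 ± 0.40 (edgeR adjusted p = 0.210) became -0.04 without vehicle rat 5. Hsd17b2 had -1.38 ± 0.83 (adjusted p = 0.214), Hsd17b6 -0.39 ± 0.38 (0.452) and Shbg -0.08 ± 0.31 (0.864). The summed CPM of the 10 hepatocyte markers, with Alb the largest, was 265721 to 353570 in vehicle males and 80146 to 257799 at 1000 mkd, and the gland marker sum was 0.316 to 1.34 and 0.764 to 1.79 CPM. The part of the hepatocyte markers in the lower values of the 8 genes was not tested.

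**Figure D2:**
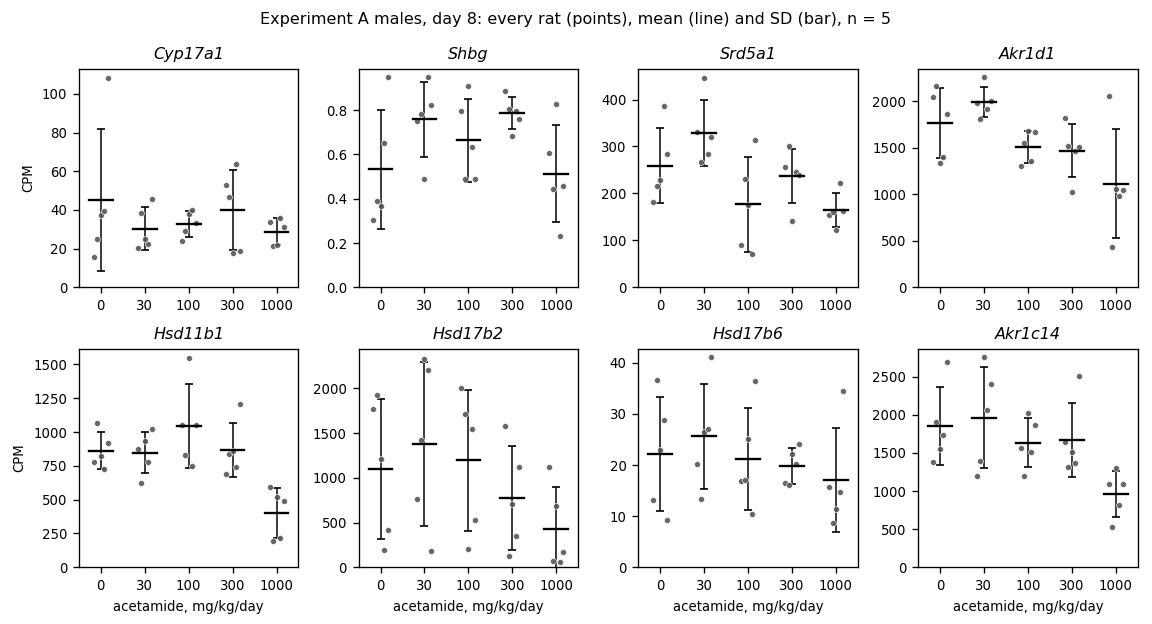
CPM of the 8 genes in experiment A males on day 8 against acetamide dose in mg/kg/day, with 1 point per rat, the mean as a line and the SD as a bar (n = 5 per dose). The 1000 mg/kg/day points of Hsd11b1 (197 to 597 CPM) and Akr1c14 (524 to 1302 CPM) lie below every vehicle point.

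In experiment B the same genes are described without a test, because their direction there was used to choose them. The counts of genes that met the call are given beside the share of all genes, with nothing read from them. At 1500 mkd they were 0 of 8 in males on day 8 (0.142% of all genes called up and 0.0354% down), 1 of 8 in males on day 29, Cyp17a1 (3.16% up and 1.76% down), 0 of 8 in females on day 8 (0.522% up and 0.183% down) and 3 of 8 in females on day 29, Cyp17a1, Srd5a1 and Akr1c14 (9.55% up and 3.54% down). At any lower dose 0%, 3.03%, 1.37% and 1.62% of all genes were called in the same order, and 0 of the 8 genes. All doses of a table share its vehicle rats.

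Cyp17a1 had a lower mean than vehicle at each of the 5 doses in males on day 29, with group means of 54.4, 45.1, 39.7, 31.0, 38.5 and 27.4 CPM from 0 to 1500 mkd. The vehicle males had 34.6, 39.2, 71.9, 83.5 and 42.8 CPM, and the 1500 mkd males 23.0, 23.3, 41.5, 28.9 and 20.1 CPM. Of the treated males 4 of 5 were below every vehicle male, and rat 3, which stands apart, was within their range. The log2 fold change of Cyp17a1 was -0.97 ± 0.29 with that rat and -1.23 without it.

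In females on day 29 Cyp17a1 means were 61.2, 56.2, 55.9, 56.1, 71.4 and 147 CPM over the same doses. Vehicle females had 27.5, 82.1, 50.5, 92.3 and 53.4 CPM, and the 1500 mkd females 72.0, 305, 256, 62.4 and 39.5 CPM. The high mean of Cyp17a1 rests on rats 2 and 3, while the other 3 treated females lay inside the vehicle range. The log2 fold change was 1.26 ± 0.45, and 0.82 without rat 2 or 0.98 without rat 3. The response of Cyp17a1 in females minus that in males was 2.26 ± 0.56 on the log2 scale at 1500 mkd on day 29, and 2.47 without male rat 3. On day 8 it was -0.04 ± 0.53. For that difference edgeR called 0.0688% of all genes on day 29 and 0% on day 8. Of the 8 genes, 0 met the call by edgeR on either day and 1 by DESeq2 on day 29, with nothing read from these counts. On day 8 the log2 fold change of Cyp17a1 at 1500 mkd was 0.25 ± 0.36 in males and 0.22 ± 0.36 in females. It was above 0 at 4 of 5 doses in males and at 5 of 5 in females.

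**Figure D3:**
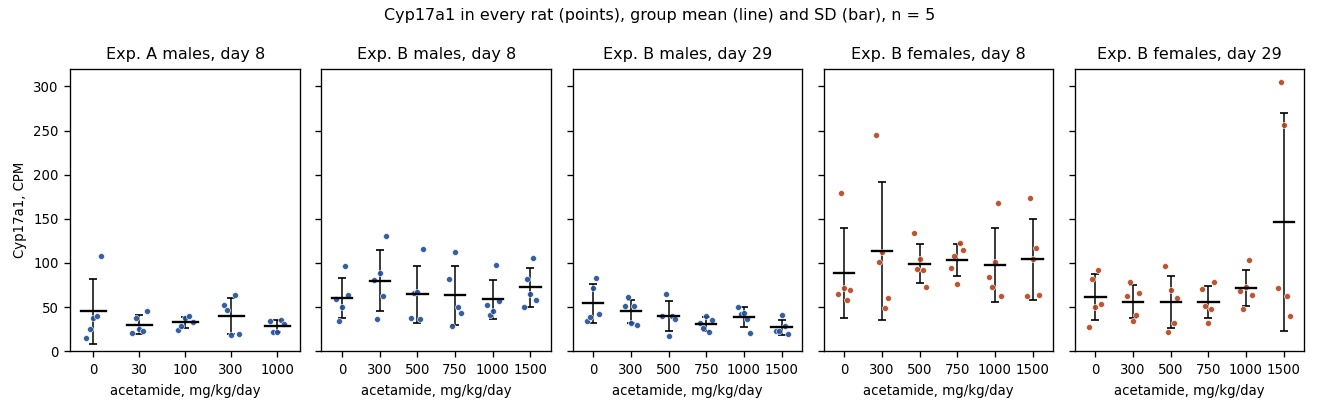
Cyp17a1 CPM in every rat against acetamide dose in mg/kg/day for the 5 data sets, with points for rats, lines for means and bars for SD (n = 5). On day 29 male means go from 54.4 to 27.4 CPM, and the female mean of 147 CPM at 1500 mg/kg/day comes from 2 rats at 256 and 305 CPM.

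Over all 29 groups the mean of Cyp17a1 ran from 27.4 CPM (males, day 29, 1500 mkd) to 147 CPM (females, day 29, 1500 mkd). Below the top, the next groups were females on day 8, whose 6 means lay between 88.8 and 113 CPM. Males of experiment B on day 8 had means of 58.7 to 79.6 CPM and males of experiment A 28.8 to 45.1 CPM. Neighbours in this order differed by less than their SD, which was 6.51 to 124 CPM within groups.

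Srd5a1 was below vehicle at 5 of 5 doses in females on both days. So was Hsd17b6, but its day 8 vehicle mean of 64.6 CPM included rat 1 at 156 CPM, with 37.5 to 47.9 CPM in the other vehicle females. The day 8 means of Hsd17b6 from 300 to 1500 mkd were 54.3, 47.4, 38.5, 45.1 and 37.1 CPM, so its day 8 count leans on that rat. On day 8 the Srd5a1 means were 1154, 903, 662, 611, 574 and 635 CPM from 0 to 1500 mkd, and at 750, 1000 and 1500 mkd all 5 rats lay below all 5 vehicle females. The log2 fold change at 1500 mkd was -0.87 ± 0.29 on day 8 and -0.75 ± 0.22 on day 29, when the means were 1007, 882, 828, 823, 719 and 597 CPM. In males the means at 1500 mkd were 125 CPM on day 8 and 116 CPM on day 29, inside the spread of vehicle males (log2 fold change on day 29 -0.15 ± 0.31, and -0.09 without rat 3).

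Akr1c14 was lower than in vehicle at 5 of 5 doses in females on day 29. Vehicle females had the values given above (1620 to 3805 CPM), and the 1500 mkd females had 1281, 1125, 1596, 1364 and 2089 CPM, 4 of 5 below every vehicle female. Its log2 fold change was -0.74 ± 0.18. In males on day 29 it was -0.20 ± 0.18 (-0.16 without rat 3), from 1384 ± 375 to 1184 ± 202 CPM.

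Shbg was higher than in vehicle at 5 of 5 doses in males on day 8 and lower at 5 of 5 doses in females on day 8. At 1500 mkd males had 0.808, 1.60, 1.15, 1.14 and 1.05 CPM, all above the 5 vehicle males. Females had 0.594, 0.380, 1.24, 0.617 and 0.596 CPM against the 0.522 to 1.61 CPM of vehicle females. The log2 fold changes were 1.25 ± 0.33 and -0.84 ± 0.38, and their difference, female minus male, was -2.10 ± 0.51. By day 29 the values at 1500 mkd were 0.36 ± 0.47 in males (0.56 without rat 3) and -1.06 ± 0.42 in females.

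Hsd11b1 had a log2 fold change of 1.16 ± 0.49 in females on day 8 at 1500 mkd, from 30.8 ± 11.4 to 68.8 ± 38.6 CPM, with 3 of 5 rats above every vehicle female, and of 0.55 ± 0.52 on day 29. The day 29 value of Hsd11b1 was 1.30 without vehicle female rat 1 and 0.21 without treated female rat 2. In males it was -0.29 ± 0.26 on day 8 and -0.21 ± 0.28 on day 29, the latter -0.05 without rat 3, which had 229 CPM of Hsd11b1 against 707 to 916 CPM in the other 4. Akr1d1 ran between -0.35 and 0.38 at 1500 mkd over the 4 data sets, and its 0.25 ± 0.22 in males on day 29 was -0.04 without rat 3. Hsd17b6 had -0.68 ± 0.31 in males and -0.80 ± 0.42 in females on day 8, with 3 of 5 treated rats below every vehicle rat in each sex. The female value of Hsd17b6 on day 8 was -0.19 without vehicle rat 1, at 156 CPM against 37.5 to 47.9 CPM in the other 4. On day 29 Hsd17b6 had -0.05 ± 0.22 in males (-0.06 without rat 3) and -0.65 ± 0.28 in females. At 1500 mkd Hsd17b2 had -0.36 ± 0.65 in males and -0.24 ± 0.65 in females on day 8. Its day 29 values were 0.34 ± 0.61 in males and -0.70 ± 0.70 in females. The male value of Hsd17b2 on day 29 ran from -0.21 to 0.66 when any 1 of the 10 rats, rat 3 included, was left out.

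**Figure D4:**
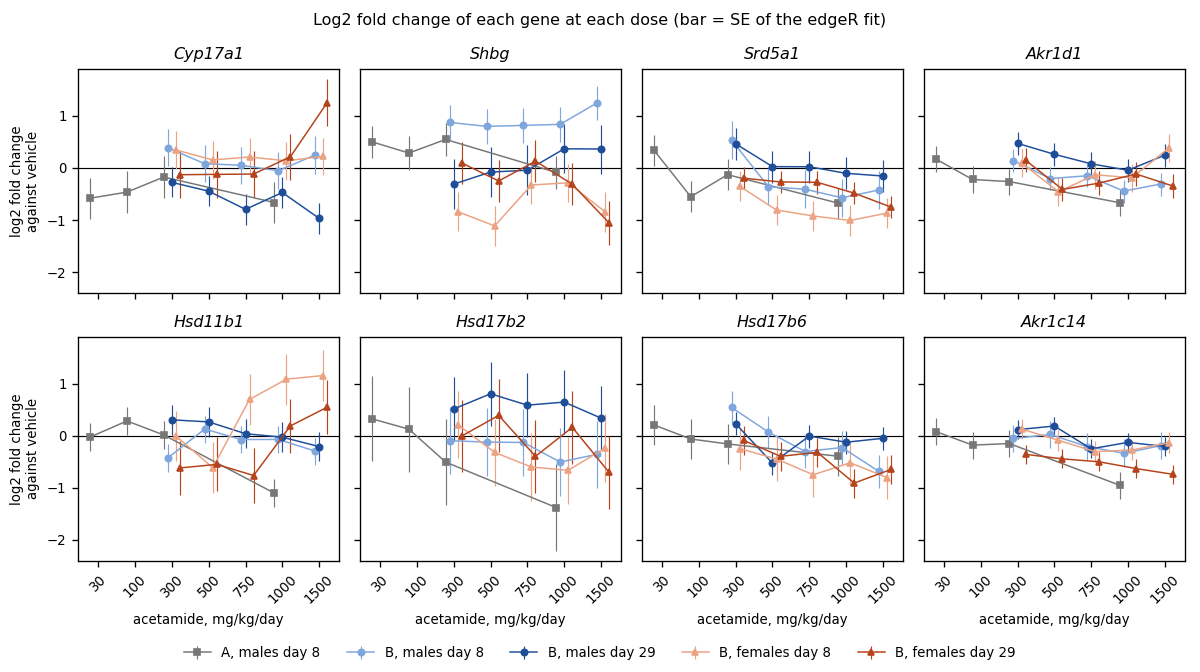
Log2 fold change against vehicle of each gene at each acetamide dose in mg/kg/day, with the SE of the edgeR fit as bars, 5 rats per group and 1 line per data set. Srd5a1 and Akr1c14 lie below 0 at every dose in females on day 29, and Cyp17a1 goes to 1.26 in females and -0.97 in males at 1500 mg/kg/day on day 29.

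The summed hepatocyte markers also moved with dose on day 29. They were 181919 to 361499 CPM in vehicle females and 85602 to 176839 CPM in females at 1500 mkd, and 194725 to 255288 and 108548 to 218536 CPM in males. The gland marker sum was 0.981 to 2.28 CPM in vehicle females and 0.911 to 2.20 CPM at 1500 mkd, with Cyp11b1 and Mc2r at 0, and 0.745 to 1.23 and 1.03 to 2.28 CPM in males. Their part in the values of the 8 genes was not tested.

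Hsd17b2 stood out for its spread between rats that had the same treatment. Within groups the highest rat had a median of 6.81 times the lowest (2.04 to 20.5 times over 29 groups), and the SD on the log2 scale was at percentile 99.6 of 11890 genes. In vehicle males of experiment A the 5 rats had 1765, 1923, 1212, 190 and 413 CPM. Over the 120 rats of experiment B, centred by table, the genes most like it were Dbp (Pearson r 0.92), Per3 (0.87), Tef (0.86), Nr1d1 (0.82) and Slc25a10 (0.81), and the least like it was Arntl (-0.87). All of these but Slc25a10 belong to the circadian clock or its direct outputs, with Dbp and Arntl at opposite phases.

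Experiment A, which was not used to find these genes, gave the same relation. In the same 5 vehicle males Dbp was 266, 241, 171, 4.56 and 11.8 CPM. For these correlations the log2 CPM of each dose group was centred on the group's mean. Over the 25 rats Hsd17b2 and Dbp had a Pearson r of 0.95 and a Spearman rho of 0.91, and Hsd17b2 and Arntl had -0.88 and -0.88. Each had a permutation p of 1.0e-05, the smallest that 100000 resamples within dose groups can give, over 2 relations tested, and the adjusted values equal it. Without the 2 rats farthest from the median, r was 0.93 for Dbp and -0.84 for Arntl. Within the 4 tables of experiment B, centred by dose group in the same way, r was 0.91 to 0.96 for Dbp and -0.86 to -0.92 for Arntl, as a description. The clock time of tissue collection for each rat is not in the labels, and its part was not tested.

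With the log2 CPM of Dbp as a covariate, chosen after the data were seen, the sex difference of Hsd17b2 in vehicle rats had a smaller error. It was -1.41 ± 0.33 on day 8 (edgeR adjusted p = 0.00781, with 8.37% of all genes called) and -0.84 ± 0.33 on day 29 (adjusted p = 0.0789, 12.3%). Dbp itself differed by -0.43 on the log2 scale between the sexes on day 8 (edgeR adjusted p = 0.814) and by -0.16 on day 29 (0.915).

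**Figure D5:**
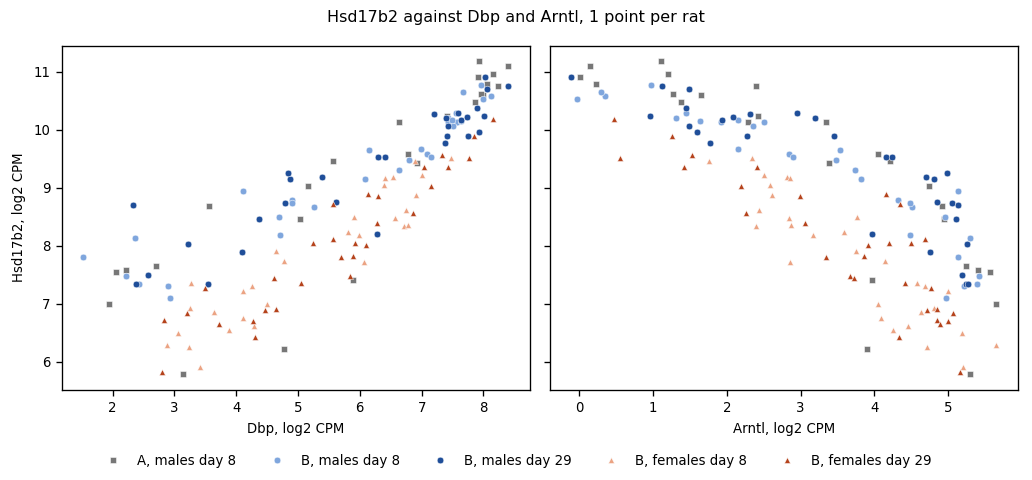
Log2 CPM of Hsd17b2 against log2 CPM of Dbp (left) and Arntl (right), with 1 point per rat for 145 rats, coloured by data set. Hsd17b2 goes up with Dbp and down with Arntl. Over the 25 rats of experiment A, r was 0.95 and -0.88 after each dose group was centred on its mean, whereas the points shown are not centred.

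The genes whose pattern was most like that of Cyp17a1 were found among 11124 genes as a description. Over the 24 group means of experiment B they were Cd93 (r = 0.91), Ptpra (0.91), Fgd6 (0.90), Samhd1 (0.90) and Galnt10 (0.90). Over the 120 rats centred by table they were C2cd5 (0.49), Lamc1 (0.46), Golim4 (0.45), Wdr1 (0.43) and Rbp7 (0.43), none of them in the first list. The points share vehicle groups, tables and library composition. For Shbg, 3 of the 5 most alike genes over the 120 rats, Cldn7 (0.56), Plscr3 (0.46) and Neurl4 (0.35), lie within 34 protein-coding genes of it in GRCr8.

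A list of 75 other genes of steroid synthesis, reduction, oxidation, hydroxylation, conjugation, binding and reception held 71 in the files. Depending on the comparison, 53 to 57 of them passed the filter. These were tested at the highest dose of each data set and between the sexes in vehicle rats. They were also tested for the difference of responses between the sexes at the highest dose of experiment B. The list was chosen with earlier results of these data known. At 1000 mkd in experiment A, 20 of 57 that passed the filter were called down (35.1%, against 7.45% of all genes) and 1 was called up, with a median log2 fold change of -0.55. By role these were 5 of 10 hydroxylases, 5 of 10 genes of synthesis and cofactors, 4 of 13 dehydrogenases, 2 of 8 reductases, 3 of 10 conjugating enzymes and 1 of 6 binding proteins and receptors. Cyp2c7, a retinoid and steroid hydroxylase, fell from 2264 ± 659 to 529 ± 139 CPM (-2.10 ± 0.33, edgeR adjusted p = 0.000171). Cyp2c11, the male-specific androgen hydroxylase, fell by 1.71 on the log2 scale (adjusted p = 0.00746, and 0.0693 when only the 2 groups were fitted). Sult2a1, a hydroxysteroid sulfotransferase, fell by 1.68 (adjusted p = 0.00177). The gene that rose was Srd5a3, a polyprenol reductase named for its likeness to Srd5a1, from 4.51 ± 0.81 to 8.95 ± 3.54 CPM (0.98 ± 0.21, edgeR adjusted p = 0.00154).

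On day 8 of experiment B edgeR called none of these genes at 1500 mkd, 0 of 57 in males and 0 of 54 in females. At an unadjusted p under 0.05 the counts were 14 and 5, and DESeq2 called 4 and 0. On day 29 in males 2 were up and 2 down of 57, with a median of 0.04. Srd5a3 rose by 0.73 ± 0.22 (edgeR adjusted p = 0.0401) and Akr1c19, a steroid dehydrogenase of the aldo-keto reductase family, by 0.66 ± 0.19 (0.0314). Ugt2b37, a steroid glucuronosyltransferase, fell by 1.47 (edgeR adjusted p = 0.0215), with all 5 treated rats below all vehicle rats. Esr1, the estrogen receptor, had 9.74, 15.1, 8.67, 10.1 and 9.16 CPM in vehicle males and 3.58, 2.72, 8.48, 4.26 and 2.19 CPM at 1500 mkd, and fell by 1.29 (adjusted p = 0.0466) without overlap. Each of these 4 calls turned on single rats. Srd5a3 was lost without any 1 of the 5 vehicle rats or treated rats 1, 3 and 5 (0.41, adjusted p = 0.171, without rat 3), Akr1c19 without vehicle rats 1, 2 and 4 or treated rats 4 and 5, Ugt2b37 without rat 2 of either group, and Esr1 without any 1 of 9 rats, all but treated rat 3. Without treated rat 3 the values were 0.63 for Akr1c19, -1.49 for Ugt2b37 and -1.77 for Esr1.

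In females on day 29 1 was up and 5 down of 53, with a median of -0.23. Srd5a3 rose again, by 0.87 ± 0.19 (edgeR adjusted p = 0.00204), and 3 of the 5 that fell are named. Cyp2c12, the female-specific steroid hydroxylase, went from 4853 ± 1967 to 2185 ± 847 CPM (-1.14 ± 0.28, edgeR adjusted p = 0.00527). Ugt2b10 fell by 1.09 (adjusted p = 0.0174) and was lost without vehicle rat 1 or 5 or treated rat 2. Cyp2c7 fell by 1.01 (adjusted p = 0.0129) and was lost without vehicle rat 5 (0.0615). When only the 2 groups were fitted, Srd5a3, Cyp2c12, Ugt2b10 and Cyp2c7 all lost the call (adjusted p 0.0678 to 0.127). No gene of the list was called for a difference between the responses of the sexes at 1500 mkd on either day (0 of 57 by edgeR, with 5 on day 8 and 10 on day 29 at an unadjusted p under 0.05).

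Without acetamide the list held more sex differences than all genes did, as counts: 25 of 57 on day 8 (43.9%, against 7.98%) and 24 of 57 on day 29 (42.1%, against 11.8%). Cyp2c11 and Cyp2c12, used above as sex markers, belong to the list. These shares are therefore a description and no test of steroid genes as a class. On each day 9 of 10 hydroxylases were called, 4 higher and 5 lower in females, and 5 of 8 reductases, all lower in females. Cyp2c12 was higher in females on day 8 (log2 difference 5.18 ± 0.51, edgeR adjusted p = 5.02e-07), as were Cyp2c7 (1.83 ± 0.30, 0.000300) and Sult2a1 (1.23 ± 0.26, 0.00301), while Ugt2b37 was lower (-1.62 ± 0.38, 0.00747). Srd5a3 and Esr1 did not pass on either day.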

How the data were processed

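The authors deposited raw counts of reads per gene in 5 tables, 1 for experiment A and 4 for experiment B (sex by duration). Per the study's methods and the submitters' processing notes, libraries were made with a stranded mRNA kit and read as 75 bp single ends on a NextSeq 500, trimmed with Trimmomatic, aligned to Rn6 with Bowtie2 and counted over gene models with HTSeq. The strand setting of the counting is not given in the sources used here. HTSeq summary lines, 35.5 to 67.1% of all reads in the experiment B tables and none in the experiment A table, name no gene and entered neither library sizes nor tests. Of the per-sample columns, 0 were left out and 0 pairs were identical.

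CPM values use 1 set of TMM library sizes over all 145 rats, and are compared within a gene, never between genes, as lengths were not used. Tests used edgeR 4.0.16 in R 4.3.3 (TMM, filterByExpr, glmQLFit and glmQLFTest), 1 fit per table, with Benjamini-Hochberg adjustment over all genes tested. A call needs a fold change of at least 1.5 and an adjusted p of at most 0.05, as in the study. Vehicle rats of experiment B were fitted together (20 rats), and so were both sexes of each day for the difference of responses. Log2 CPM for correlations used a prior count of 2. The fits were tested on simulated data for changes of log2 1 and 2 before use. The 8 genes, the lists of other steroid genes and the markers were chosen with earlier results of these data known. All 8 genes entered every comparison, though not every value is printed. Other steroid genes are named where called at the highest dose of a data set, at most the 3 with the largest change per direction. Alternatives were DESeq2 1.42.0 (Wald test), DESeq2 size factors, the unfiltered table, a minimum of 10 counts per rat, a replicate block, fits of the compared groups alone, and leaving out each rat. The Dbp covariate, the alternatives for the 2 vehicle male groups and those for the named other genes were added after the data were seen. Groups came from the labels. The day 29 vehicle males of experiment B carry the experiment A exposure label, but their strain and title put them in experiment B. Same-numbered rats did not deviate together (mean r by table -0.0143 to 0.0382), so the numbers do not pair them. Promoter sequences, their coordinates and the gene order are from RefSeq (GRCr8), whereas the counts are on Rn6. No coordinates of the counted gene models are given.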

Additional observations from a re-analysis of the deposited data

Results flagged for a closer look

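Of 232 sets of 5 rats (8 genes in 29 groups), 18 (7.76%) held a rat whose gap to the next was over 0.71 of the group's range. About 1 in 20 sets of normally distributed values pass that limit. It was applied to CPM without a log scale, where that rate need not hold, so no excess is read from the 7.76%. For Cyp17a1 these were vehicle female rat 2 on day 8 at 180 CPM (next 71.8), male rat 4 at 1000 mkd on day 8 at 97.5 CPM (next 56.9), and vehicle male rat 5 of experiment A at 108 CPM (next 39.6). For Shbg it was female rat 3 at 1500 mkd on day 8 at 1.24 CPM (next 0.617). For Srd5a1 they were male rat 3 at 300 mkd on day 8 at 518 CPM (next 204) and male rat 3 at 1500 mkd on day 29, low at 73.2 CPM (next 121).

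Akr1d1 had female rat 4 at 300 mkd on day 8 at 1045 CPM (next 655) and male rat 3 at 1500 mkd on day 29 at 3262 CPM (next 1832). Hsd11b1 had male rat 1 at 500 mkd on day 8 at 1485 CPM (next 805), male rat 1 at 750 mkd on day 8 at 1395 CPM (next 753), female rat 2 at 1000 mkd on day 8 at 166 CPM (next 56.8), and vehicle female rat 1 on day 29 at 132 CPM (next 36.1). Hsd17b2 had female rat 4 at 1000 mkd on day 8 at 597 CPM (next 149).

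Hsd17b6 had vehicle female rat 1 on day 8 at 156 CPM (next 47.9), rat 5 at 1000 mkd in experiment A at 34.5 CPM (next 15.8), and male rat 4 at 300 mkd on day 29, low at 41.1 CPM (next 48.9). Akr1c14 had female rat 4 at 300 mkd on day 8 at 3546 CPM (next 2040) and rat 5 at 300 mkd in experiment A at 2507 CPM (next 1644). Female rat 4 at 300 mkd on day 8 was thus high for both Akr1d1 and Akr1c14, and male rat 3 at 1500 mkd on day 29 was high for Akr1d1 and low for Srd5a1.

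Every male given 750 mkd to day 8 had more Shbg than the mean of its vehicle group and every female had less than the mean of hers, with a log2 response in females minus males of -1.14 ± 0.51. The females, at 0.704 to 1.07 CPM, lay inside the range of vehicle females (0.522 to 1.61 CPM), and 3 of 5 males lay above every vehicle male. At 300, 500, 1000 and 1500 mkd the difference was -1.72, -1.92, -1.12 and -2.10. The direction of Shbg in experiment B was among the values behind the choice of the genes, so these differences were not tested.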

How the results depend on the processing

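Shbg had 4 to 66 reads per library, so counting error limits it, and it drops out when at least 10 counts are asked of every rat. A call needs a 1.5-fold change by definition. No alternative moved the median of all genes by over 0.1 on the log2 scale. The cause of each change below was not tested.

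Counts of the 8 genes called changed as follows, those of experiment B being descriptions, since its contrasts chose the genes. With DESeq2 1 was called in males on day 8 and 1 for the difference of responses on day 29, against 0 and 0. With the compared groups alone 0 were called in males and 0 in females on day 29, against 1 and 3. Leaving out 1 rat gave 2 to 3 in experiment A, 0 to 1 in males and 1 to 4 in females on day 29 (1 without vehicle rat 1 or 5 or treated rat 2), 0 to 1 for day 29 against day 8 in vehicle females, and 0 to 1 for the difference of responses on day 29. Other steroid genes called were 13 in experiment A (compared groups alone, against 21), 4 in males on day 8 (DESeq2, against 0), 7 (DESeq2) and 2 (compared groups alone) in males on day 29, against 4, and 0 in females on day 29 (compared groups alone, against 6). Leaving out 1 rat gave 14 to 24, 0 to 2, 0 to 6 and 2 to 10 in these 4 data sets.

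Over all genes the calls at 1500 mkd went from 20 to 175 (DESeq2) in males on day 8, with 2 to 86 on leaving out 1 rat, from 81 to 338 (DESeq2), 3 (replicate block) and 11 (compared groups alone) in females on day 8, from 554 to 210 in males and 1498 to 488 in females on day 29 (compared groups alone), and from 8 to 107 (DESeq2) for the difference of responses on day 29, with 0 to 768 on leaving out 1 rat. DESeq2 called 328 against 38 genes between the vehicle males of both experiments, 271 against 88 over time in vehicle females and 24 against 4 in vehicle males.

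With the replicate block the 8 genes gave 3 calls in experiment A (against 3), 2 in females on day 29 (against 3), 3 on day 8 (against 4) and 5 on day 29 (against 4) between vehicle sexes, and Shbg on day 8 had an adjusted p of 0.0574. The replicate numbers do not pair the rats, and the cause of these changes was not tested.

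Directions of tested values changed as follows. Hsd11b1 in vehicle males, day 29 minus day 8 (0.00062), was -0.00220 with DESeq2, -0.00221 with size factors, -0.00723 with at least 10 counts and -0.00175 with compared groups alone. Leaving out 1 rat, it ran from -0.14 to 0.14, Cyp17a1 from -0.36 to 0.051 and Hsd17b6 from -0.044 to 0.17. In vehicle females over time Shbg ran from -0.17 to 0.29, Akr1d1 from -0.26 to 0.17, Hsd11b1 (0.69 with all rats) from -0.069, without day 29 rat 1, to 0.87 and Hsd17b2 from -0.23 to 0.59. Shbg at 1000 mkd in experiment A ran from -0.32 to 0.23, Cyp17a1 between vehicle sexes on day 29 from -0.045 to 0.36, and between vehicle males of both experiments Shbg ran from -0.30 to 0.14, Hsd11b1 from -0.23 to 0.030 and Akr1c14 from -0.31 to 0.062. Of the 362 tested values of single genes that kept every rat, 335 kept direction and side of the threshold, 16 lost a call, 7 gained one and 4 reversed. Described experiment B values at 1500 mkd also changed sign without 1 rat. In males on day 8 these were Hsd17b2 (-0.62 to 0.060) and Akr1c14 (-0.30 to 0.0088). In males on day 29 they were Srd5a1 (-0.37 to 0.021), Akr1d1 (-0.044 to 0.37), Hsd17b2 (-0.21 to 0.66) and Hsd17b6 (-0.19 to 0.034). In females on day 8 they were Cyp17a1 (-0.039 to 0.67) and Hsd17b2 (-0.55 to 0.24). The day 8 difference of responses did so for Cyp17a1, Hsd17b2, Hsd17b6 and Akr1c14.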
